A study of Homo sapiens with 4 samples.

Results

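The regulators described here are 47 transcription factors and cofactors that direct the formation of blood cells, chosen by gene name from the 30811 gene names on the array. They were read by 79 probes, and 44 of the 47 genes had a probe that could be tested. Gene expression was measured in NB4, an established human cell line of acute promyelocytic leukemia (APL), and in a line derived from it that is resistant to arsenic trioxide (ATO), the drug used against this leukemia. There were 2 flasks of naive NB4 and 2 flasks of the resistant line, which is written NB4-VM-AsR1 in the labels and NB4-EV-AsR1 in the methods. Taking the 2 names for 1 line is an assumption. Both lines were kept in RPMI with FBS, and the resistant cells had been without the drug for 1 week. The resistant line is a single clone, so that a difference between the lines belongs to this clone and was not measured in another. The question is which of these regulators differ in RNA level between naive and resistant cells.

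Blood cells arise from stem cells through progenitors that commit step by step to the red cell, platelet, granulocyte, monocyte or lymphocyte lines. Each step rests on DNA-binding proteins that switch the genes of 1 line on and those of another off, such as PU.1 (SPI1) and the C/EBP proteins in granulocytes and monocytes, GATA1 with the SCL complex in red cells and platelets, and Ikaros and ETS1 in lymphocytes. In APL the PML-RARA fusion protein holds the cells at the promyelocyte, a granulocyte precursor.

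Each flask was hybridized to 1 Agilent array with 1 dye. On the arrays 68.1 to 68.9% of 41000 probes were well above background, and 457 to 565 probes were saturated. All arrays lay on 1 slide, with the naive flasks in the first positions and the resistant flasks in the last, so that position and line cannot be told apart. Levels are given as the log2 of the signal relative to the 75th percentile of the same array, so that 0 is that percentile. Levels of different genes cannot be set against each other, since every probe has its own response. A probe entered the limma fit if the scanner software marked it as well above background in both flasks of 1 line or of both, and it was called at an adjusted p below 0.05 together with a difference of at least 2-fold. A gene is given by its tested probe of highest mean. Of 7 promyelocyte markers, all 4 arrays read MPO, CTSG, PRTN3, CD33, AZU1 and ANPEP well above background, while ELANE was so on 1 naive and both resistant arrays. Among these, ELANE and AZU1 were called higher and ANPEP lower in the resistant line. Of the stromal markers, COL1A1, COL1A2 and COL3A1 were not well above background on any array, THY1 was on all 4, PDGFRB on 3, and DCN on 1 array of each line. Of the endothelial markers, CDH5, KDR and TEK were not well above background on any array, and PECAM1 was on all 4.

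Of the 44 regulators tested, 7 were called changed, 3 higher and 4 lower in the resistant line. That is 15.9% of them, where 5.47% of all 20964 genes tested were called, 2.49% higher and 2.98% lower. By probes it was 11 of 68, or 16.2%, beside 5.27% of all probes. MEF2C, BCL6 and PRDM1 rose, and EGR1, ETS1, IKZF2 and GATA2 fell. MEF2C and PRDM1 entered the test through the resistant flasks alone, where they were high. With only probes well above background on all arrays, 5 of 41 members were called, 1 higher and 4 lower. Over all probes it was then 760 of 25962, 347 higher and 413 lower. The median log2 change of the 44 was 0.02, beside -0.01 for all genes, so that the set as a whole was not displaced to one side. Its median size without sign was 0.58, beside 0.34 for all genes. A difference of at least 2-fold, with no p asked for, was found for 12 of the 44, and for 12.6% of all genes. The values of the 2 lines did not overlap for 32 of the 44, and for 53.3% of all genes. An exact two-sided permutation test of 2 flasks against 2 cannot give a p below 0.333 for 1 gene. Each call therefore depends on a variance that limma borrows from the other probes. All 7 calls were lost after normexp background correction with an offset of 50, which left no probe of the 28221 called with limma (929 at an unadjusted p below 0.05), and with the methods' t-test once its p-values were adjusted by Benjamini-Hochberg, which called no probe either (4138 at an unadjusted p below 0.05), while the direction of all 7 was kept under each alternative that gave them a value.

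**Figure D1:**
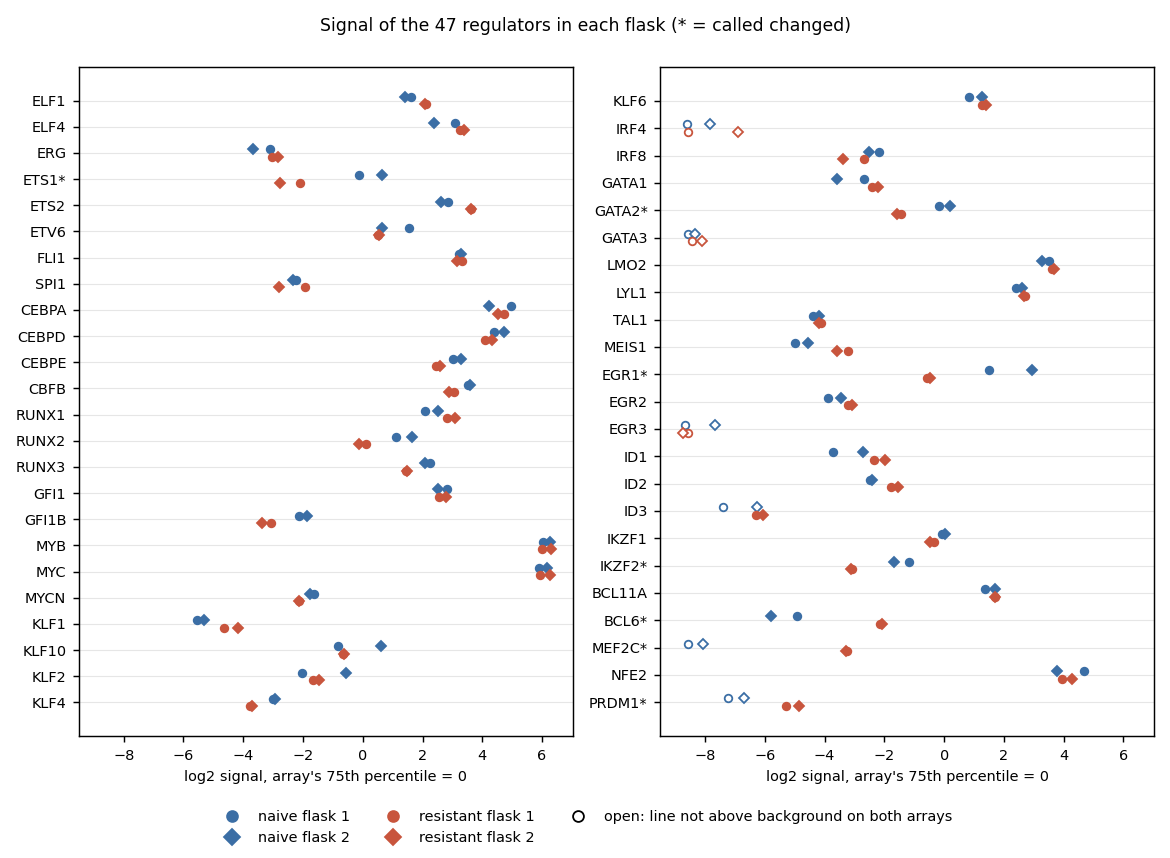
Log2 signal of the 47 regulators in each of the 4 flasks, relative to the 75th percentile of the array, with naive flasks in blue and resistant flasks in red. The gene names with an asterisk are the 7 called genes, and open symbols mark a line in which the probe was not well above background on both arrays. Signals of different genes are not comparable along the axis.

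MEF2C, which had the largest fitted change of the members, is a MADS-box factor of lymphoid and monocyte precursors that is also known from muscle. Its log2 level was -8.57 and -8.07 in the naive flasks and -3.25 and -3.27 in the resistant flasks. Both naive values were not well above background, and both resistant values were. Because the naive signal is only an upper limit, the difference is at least 8.01-fold, computed against the lowest signal well above background on each naive array. The fitted log2 change was 5.06 (SE 0.26, adjusted p = 0.00117). The size depends on how signals near background are treated: the change was 1.28 (adjusted p = 0.0211) after normexp correction with bright local backgrounds set to the array's median, and 1.03, not called, with normexp and an offset of 50. The probe lies at chr5:88016817-88016876 (hg19).

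BCL6, a zinc finger repressor of germinal centre B cells, was measured well above background in all flasks. Its log2 level was -4.94 and -5.80 in the naive flasks and -2.14 and -2.07 in the resistant flasks. The resistant flasks lay together and far above both naive flasks. The log2 change was 3.27 (SE 0.34, adjusted p = 0.00744), or 9.63-fold, with a 95% interval of 2.40 to 4.13 that is not adjusted for the number of probes. It was 1.70 (adjusted p = 0.00325) after normexp correction with bright backgrounds reset, and 1.43, not called, with normexp and an offset of 50. The probe lies at chr3:187439641-187439700 (hg19).

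PRDM1 encodes BLIMP1, the repressor that drives B cells to plasma cells and that BCL6 is known to hold down. Its log2 level was -7.25 and -6.69 in the naive flasks, not well above background, and -5.29 and -4.87 in the resistant flasks, where it was. The difference is at least 2.27-fold, and the fitted log2 change was 1.89 (SE 0.30, adjusted p = 0.0317). After normexp correction with bright backgrounds reset, the change was 0.40 with an adjusted p of 0.43, so that this call rests on how a signal near background is treated. The probe lies at chr6:106555123-106555182 (hg19). BCL6 and PRDM1, known as a pair of mutual opponents in B cells, were thus both higher here.

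EGR1 is an immediate early gene, one of those transcribed within minutes of a growth or stress signal, and a regulator on the monocyte path. Its log2 level was 1.51 and 2.93 in the naive flasks and -0.56 and -0.49 in the resistant flasks. The naive flasks differed from each other by 1.42, the resistant flasks by 0.08, and both naive values were above both resistant ones. The log2 change was -2.75 (SE 0.49, adjusted p = 0.0425), 6.72-fold lower in the resistant line. Without naive flask 1 the change was -3.46 and without naive flask 2 it was -2.04. After quantile normalization the adjusted p was 0.0805. The probe lies at chr5:137804891-137804950 (hg19).

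ETS1, a factor of T, B and NK cells, had a log2 level of -0.13 and 0.64 in the naive flasks and -2.12 and -2.79 in the resistant flasks. Every naive value lay above every resistant value. The log2 change was -2.70 (SE 0.38, adjusted p = 0.0202), 6.52-fold lower. A second probe gave -2.89 (adjusted p = 0.00527). The last of its probes gave -1.51 with an adjusted p of 0.0609 and was not well above background in the resistant line, where the difference is at least 2.58-fold. The first probe lies at chr11:128329734-128329794 (hg19).

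IKZF2 encodes Helios, an Ikaros family protein of T cells and progenitors. Its log2 level was -1.19 and -1.68 in the naive flasks and -3.08 and -3.10 in the resistant flasks. The log2 change was -1.66 (SE 0.26, adjusted p = 0.03), 3.16-fold lower, and a second probe gave -1.48 (adjusted p = 0.0493). With normexp and an offset of 50 the change was -0.78, not called. The resistant flasks lay within 0.02 of each other and below both naive flasks. The probe lies at chr2:213864536-213864595 (hg19).

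GATA2, which maintains stem cells, progenitors and mast cells, had a log2 level of -0.18 and 0.21 in the naive flasks and -1.45 and -1.56 in the resistant flasks. The log2 change was -1.52 (SE 0.25, adjusted p = 0.0328), 2.87-fold lower. A second probe gave -1.65 (adjusted p = 0.0213). Both probes thus put GATA2 lower in both resistant flasks. With the replicate number as a block the adjusted p of the first probe was 0.0548. The probe lies at chr3:128199446-128199505 (hg19).

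MEF2C and BCL6 stayed called whichever flask was left out. Without resistant flask 1 the calls of EGR1, IKZF2, GATA2 and PRDM1 were lost, and without resistant flask 2 those of EGR1, ETS1, IKZF2, GATA2 and PRDM1 were lost, with changes of the same sign in each case. With no filter on dim probes, the calls of EGR1, ETS1, IKZF2, GATA2 and PRDM1 were lost at adjusted p of 0.0534 to 0.0949. A fit without 1 flask takes its spread from the pair of the other line. Over all tested probes the SD of difference was 0.371 within the resistant pair and 0.713 within the naive pair. The number of members called in such a fit is therefore not read as a result about the members. The values of the 44 regulators had an SD of difference of 0.61 within the naive pair and 0.28 within the resistant pair, beside 1.27 to 1.44 between flasks of different lines.

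**Figure D2:**
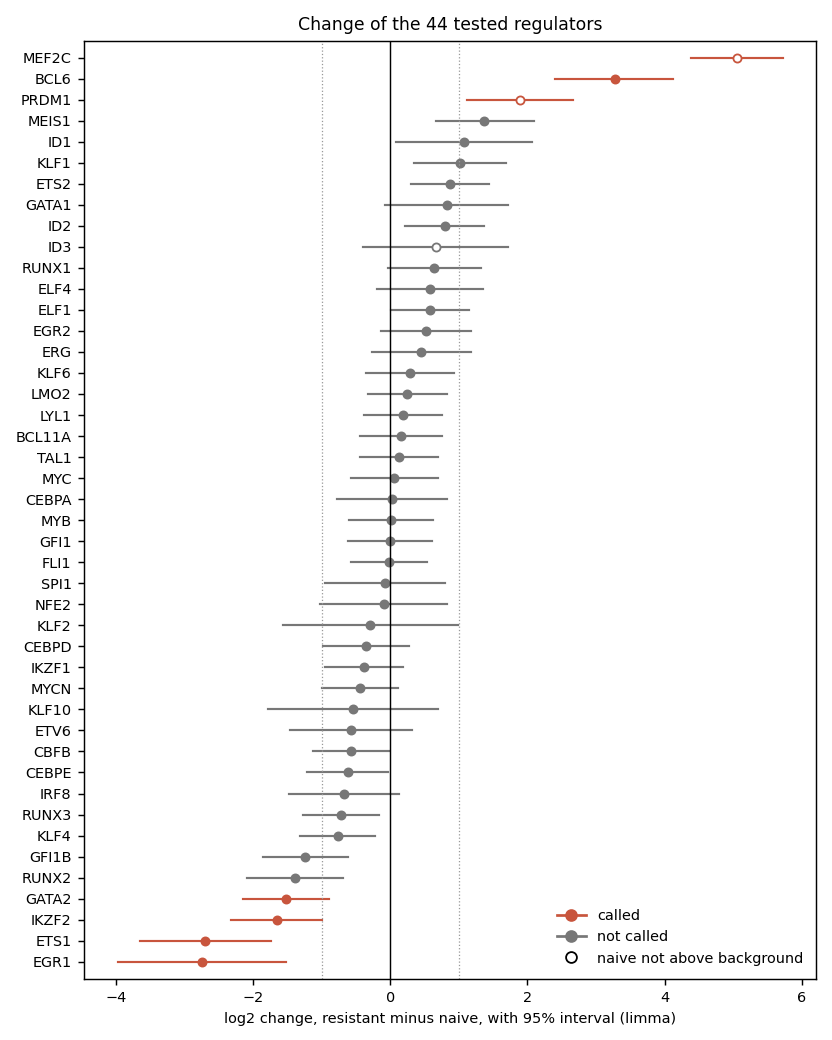
Log2 change of the 44 tested regulators, resistant minus naive, with the 95% interval of limma, ordered by size. Called genes are in red, dotted lines mark 2-fold, and open points are genes whose naive signal was not well above background. MEF2C stands at 5.06 and EGR1 at -2.75, and the intervals of 25 of the 44 include 0.

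The sequences before a listed start of the 2 called genes with the largest fitted rise and the 2 with the largest fall, among those with an entry in the RefSeq promoter table (GRCh38.p14), are printed here. Of the 47 members 37 had an entry. Each sequence is the 250 bases before the most upstream start listed, on the strand of the gene, with motif matches in capitals. Which start is used in these cells was not measured.
EGR1: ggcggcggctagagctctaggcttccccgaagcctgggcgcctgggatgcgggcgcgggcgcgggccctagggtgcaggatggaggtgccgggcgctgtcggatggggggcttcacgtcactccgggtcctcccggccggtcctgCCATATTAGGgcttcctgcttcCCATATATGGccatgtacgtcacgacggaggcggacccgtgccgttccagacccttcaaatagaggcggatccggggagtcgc
IKZF2: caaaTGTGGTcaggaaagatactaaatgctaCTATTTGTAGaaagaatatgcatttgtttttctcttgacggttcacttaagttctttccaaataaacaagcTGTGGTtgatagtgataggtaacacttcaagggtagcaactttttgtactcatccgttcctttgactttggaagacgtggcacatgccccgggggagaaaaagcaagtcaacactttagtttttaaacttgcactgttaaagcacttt
MEF2C: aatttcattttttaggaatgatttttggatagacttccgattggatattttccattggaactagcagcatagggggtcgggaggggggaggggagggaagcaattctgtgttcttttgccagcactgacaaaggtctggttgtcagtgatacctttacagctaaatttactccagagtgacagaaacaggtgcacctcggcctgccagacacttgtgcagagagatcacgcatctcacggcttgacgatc
BCL6: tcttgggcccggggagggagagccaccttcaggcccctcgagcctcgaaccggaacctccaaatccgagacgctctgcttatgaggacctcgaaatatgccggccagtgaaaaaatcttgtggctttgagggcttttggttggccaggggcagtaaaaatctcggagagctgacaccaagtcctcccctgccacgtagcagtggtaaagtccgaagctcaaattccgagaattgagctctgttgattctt
They are at chr5:138465229-138465478 (plus strand), chr2:213152457-213152706 (minus strand), chr5:88904106-88904355 (minus strand) and chr3:187745469-187745718 (minus strand). The capitals in EGR1 are 2 CArG boxes, the core of the serum response element through which serum response factor acts on early genes. Between each of them and the start lie 95 and 73 bases. A CArG box was in 1 of the 37 member windows, that of EGR1, and in 1.15% of 27305 windows of the same length. In IKZF2 the capitals include 2 copies of the RUNX motif TGTGGT that begin 246 and 148 bases before the start. The other capitals, which begin 219 bases before the start, match a loose MEF2 pattern that did not require A or T throughout its middle. This match has a G there, so it is not a MEF2 site with a middle of A and T only. Such stricter sites were not counted apart. TGTGGT was in 6 of the 37 member windows and in 11.1% of all. The loose MEF2 pattern was in 2 of the 37 and in 2.45% of all. The windows of MEF2C and BCL6 held no match to any motif searched, on either strand. The other motifs were AGATAA for GATA factors (3 of 37 windows, 9.40% of all), GCGTGGGCG (1 of 37, 0.714%) and GCGGGGGCG (5 of 37, 4.67%) for EGR proteins, CCGGAAGT for ETS factors (1 of 37, 3.64%), CACGTG for MYC (3 of 37, 6.46%) and TTGCNNAA for C/EBP proteins (3 of 37, 8.11% of member windows and 9.12% of all). All were searched on both strands, and no motif overlaps another in the windows printed.

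SPI1, CEBPA, CEBPD, CEBPE, GFI1 and IRF8, which act in granulocyte and monocyte precursors, were not called. SPI1, which encodes PU.1, was at -2.22 and -2.35 in the naive flasks and -1.94 and -2.80 in the resistant flasks. CEBPA, the factor that commits progenitors to the granulocyte line, was at 4.97 and 4.23 in the naive and at 4.72 and 4.52 in the resistant flasks. In both genes the values of the lines overlapped. The log2 change was -0.08 for SPI1 (95% interval -0.95 to 0.79) and 0.02 for CEBPA (95% interval -0.78 to 0.83), so that a difference of close to 2-fold in either direction is within the error. GFI1, a repressor of monocyte genes in granulocyte precursors, had a change of -0.01 (95% interval -0.62 to 0.61). CEBPD and CEBPE, active in maturing granulocytes, had log2 changes of -0.36 and -0.62, and IRF8, a factor of monocytes and dendritic cells, of -0.68, none past the adjusted threshold. CEBPE was 3.01 and 3.29 in the naive flasks against 2.46 and 2.59 in the resistant flasks, without overlap.

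The RUNX proteins bind DNA together with CBFB, and RUNX1 is required for the first blood stem cells. None of these 4 genes was called. In all 4 the values of the lines did not overlap, which was also so for 53.3% of all genes tested. RUNX2 was at 1.12 and 1.64 in the naive flasks and at 0.10 and -0.12 in the resistant flasks, a change of -1.39 (adjusted p = 0.0584), and its second tested probe gave -0.76. RUNX2 was called after scale normalization (adjusted p = 0.0497), after a shift to the median (adjusted p = 0.0449), with an intensity trend (adjusted p = 0.0346) and after normexp correction with bright backgrounds reset (adjusted p = 0.0221). In all, RUNX2 was called under 6 of 20 alternatives, and its smallest change was -1.07. RUNX3 had a change of -0.72, CBFB of -0.57 and RUNX1 of 0.64. RUNX1 thus stood in the opposite direction to the other 3, with 0.64 and 0.61 from its 2 probes.

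Among the regulators of red cells, platelets and early progenitors, GATA2 was the called gene. GATA1, which replaces GATA2 on DNA as red cells mature, was at -2.69 and -3.58 in the naive and -2.43 and -2.20 in the resistant flasks, a change of 0.82 (adjusted p = 0.3). GFI1B, a repressor in red cell and platelet precursors, was at -2.12 and -1.85 in the naive and -3.09 and -3.37 in the resistant flasks, a change of -1.24 (adjusted p = 0.0587), with -0.50 from a second probe. KLF1, the factor of globin genes, changed by 1.02 (adjusted p = 0.118), at signals from -5.53 to -4.17. TAL1, LYL1 and LMO2, the partners of the SCL complex, had changes of 0.12, 0.19 and 0.24, with none called. NFE2, a factor of platelet formation, had -0.10, and its interval of -1.03 to 0.82 is wide because the naive flasks read 4.66 and 3.77.

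MEIS1, a homeobox cofactor of stem cells and of leukemias, was at -4.99 and -4.54 in the naive flasks and at -3.20 and -3.58 in the resistant flasks. Its change of 1.37 (SE 0.28, adjusted p = 0.0638) missed the threshold, and both resistant values were above both naive ones. It was called after quantile normalization (adjusted p = 0.0499), after scale normalization (adjusted p = 0.03) and after a shift to the median (adjusted p = 0.0409). In all, MEIS1 was called under 5 of 20 alternatives, and its smallest change was 0.58.

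The ETS family held 8 of the members, of which ETS1 was called. FLI1, a platelet and stem cell factor, changed by -0.02 (95% interval -0.58 to 0.54). ETS2, ELF1 and ELF4 had changes of 0.87, 0.58 and 0.58, and ETV6, a repressor needed by stem cells, of -0.57. For ERG, a stem cell factor, the probes disagreed. The probe that stands for the gene read -3.10 and -3.66 in the naive flasks and -3.04 and -2.82 in the resistant flasks, a change of 0.45 (adjusted p = 0.45). A second probe, chr21:39754481-39754540 (hg19), read -6.03 and -8.39 in the naive flasks, well above background in 1 of them, and -2.93 and -3.26 in the resistant flasks, a change of 4.11 (SE 0.76, adjusted p = 0.0482) that was called. The last ERG probe was not well above background on any array. ERG is therefore not counted as called, and which transcripts each probe reads was not tested.

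Several probes were tested for 19 of the members, 43 probes in all. In 15 of the 19 genes all probes had changes of 1 sign. The genes with both signs were BCL11A, CEBPA, KLF2 and MYC, where the largest change of a probe was -0.73. The median distance between the highest and lowest change of a gene's probes was 0.24, and it was over 1 for ERG (3.66) and ETS1 (1.38). The probe that stands for ID2 maps to chromosome 3 in the scanner file and a second one to chromosome 2, where the gene lies, and they gave 0.79 and 0.71.

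**Figure D3:**
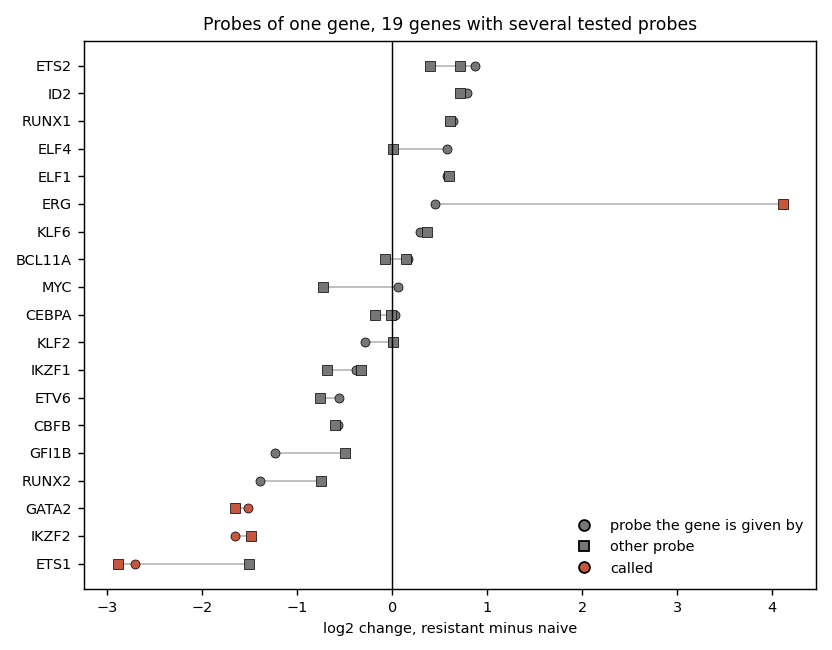
Log2 change, resistant minus naive, of each tested probe for the 19 members with several tested probes, where a circle is the probe that stands for the gene, a square another probe, and red marks a called probe. The probes of ERG lie 3.66 apart, and those of GATA2 and IKZF2 lie within 0.18 of each other.

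MYB and MYC keep precursors dividing. MYC was saturated on all 4 arrays and MYB on 2, so that a difference could not have been read in full from these probes. Their log2 changes were 0.06 and 0.01. A second MYC probe, which was not saturated, read -2.77 and -3.12 in the naive flasks and -3.08 and -4.28 in the resistant flasks, a change of -0.73 (adjusted p = 0.433) with overlapping values. MYCN had a change of -0.45. Of 27 tested genes that MYC is known to bind and that serve growth, none was called with limma, 4 had an unadjusted p below 0.05, and their median log2 change was -0.17. The largest changes among them were -1.11 for SRM (adjusted p = 0.0685) and TERT (adjusted p = 0.071) and -1.01 for CCND2 (adjusted p = 0.107). Of the 27, 12 were saturated on at least 1 array, as MYC was.

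Further members act in lymphocytes. IRF4, a plasma cell and T cell factor, and GATA3, the T helper cell factor, were not well above background on any array. BCL11A, a B cell and globin regulator, had a change of 0.16 and IKZF1, which encodes Ikaros, of -0.38. The ID proteins, which bind E proteins and keep them off DNA, all had positive values, 1.07 for ID1, 0.79 for ID2 and 0.66 for ID3, with none called. ID3 was at -7.40 and -6.25 in the naive flasks, not well above background, and at -6.28 and -6.05 in the resistant flasks, where it was, so that the difference is at least 1.07-fold (fitted change SE 0.42, adjusted p = 0.456). The naive and resistant values of ID3 overlapped. Of 6 T cell markers tested, 2 were called lower in the resistant line, CD3D (at least 169-fold, 0.70 and 1.16 against -7.61 and -7.11) and CD3G (at least 2.19-fold), and neither was well above background there. Without CD3D, the summed signal of the other 6 T cell markers on the array was 0.230 and 0.240 times the 75th percentile in the naive flasks and 0.192 and 0.227 in the resistant flasks, and CD3E (-0.01) and CD2 (1.02) were not called. CD3D alone read 1.63 and 2.24 in the naive flasks on that linear scale. The part of these genes in the values of ETS1 and IKZF2 was not tested. Of 6 B cell markers, MS4A1, PAX5 and BLK were not well above background on any array, and 1 of the 3 tested, CD79B, was called at -1.20. The summed signal of the B cell markers was at most 1.76 in each of the 4 flasks and at least 1.68 in 3 of them, beside the rise of BCL6, PRDM1 and MEF2C. In bulk RNA, fewer cells with a transcript and less of it in each cell cannot be told apart.

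EGR2 and EGR3 are relatives of EGR1 that serve macrophages and lymphocytes. EGR3 was not well above background on any array. EGR2 read -3.88 and -3.44 in the naive and -3.21 and -3.08 in the resistant flasks, a change of 0.52 (adjusted p = 0.353), so that its value stood in the opposite direction to EGR1. Among the Krüppel-like factors, KLF2 and KLF10 were split by the naive flasks on the probes that stand for these genes. KLF2 read -2.02 and -0.55 in the naive flasks and -1.68 and -1.47 in the resistant flasks, and KLF10 read -0.82 and 0.61 against -0.67 and -0.64. On both of these probes the resistant values fell between the naive ones. The changes were -0.29 and -0.55 with adjusted p of 0.804 and 0.595. A second KLF2 probe did not show this split. It read -4.84 and -4.37 in the naive flasks, which lay between -5.11 and -4.10 in the resistant flasks. KLF4, a monocyte factor, was at -2.99 and -2.94 against -3.78 and -3.69, a change of -0.77 (adjusted p = 0.142), and KLF6 changed by 0.29.

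The second naive flask was also the higher of the naive pair for most other early response genes. Of 24 tested genes of the immediate early list, 20 were higher in naive flask 2 than in naive flask 1, with a median difference of 0.30, beside a median of 0.05 and 15124 of 28221 for all probes. Between the lines, 21 of the 24 had negative changes, with a median of -0.54, and 1 was called with limma, FOSL1, a subunit of AP-1, at -1.85 and -1.66 in the naive and -3.97 and -4.35 in the resistant flasks (change -2.40, adjusted p = 0.00744). Both naive flasks were above both resistant flasks in 12 of the 24, and in 28.1% of all genes tested. IER5 is among the 12 by resistant flask 2 alone, since it had no value in resistant flask 1. Genes with a missing value were not counted as such in the 28.1%. The 1 call is 4.17% of the 24, beside the 5.47% of all genes called in either direction. NR4A1 had a change of -1.14 (adjusted p = 0.221) and JUNB of -0.93 (adjusted p = 0.103). With 1 naive flask left out, the spread within a line comes from the resistant pair alone. The number of early genes called in such a fit is therefore not read as a result about them. SRF, the factor that binds the CArG box, had a change of 0.32 (adjusted p = 0.523). The part of this difference between naive flasks in the value of EGR1 was not tested beyond the values without each flask given above.

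**Figure D4:**
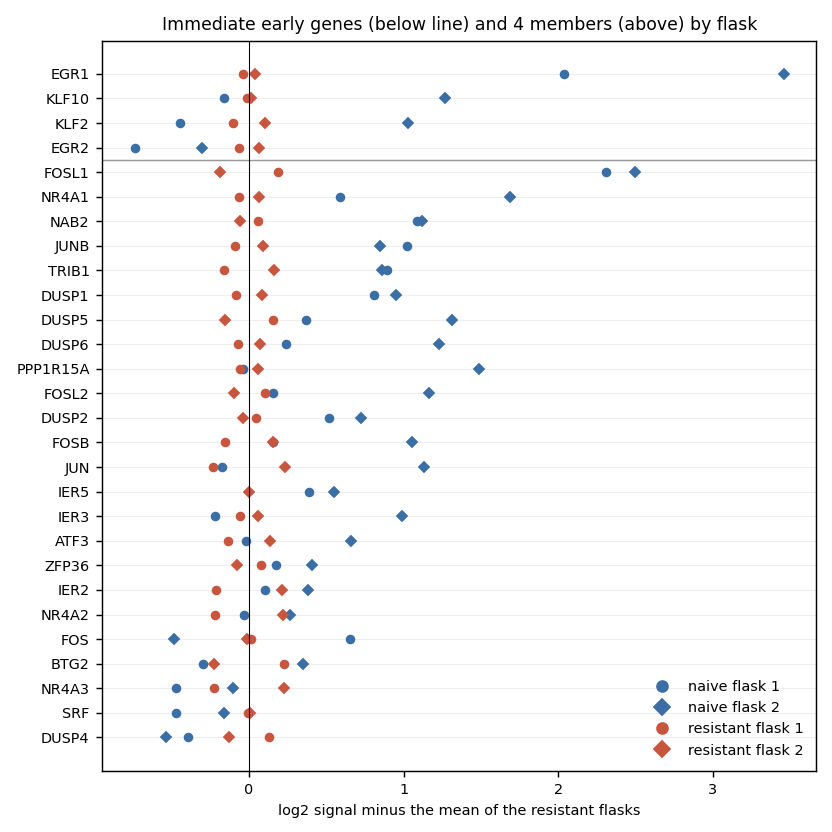
Log2 signal of 24 immediate early genes (below the line) and of EGR1, KLF10, KLF2 and EGR2 (above it, chosen after their values were seen) in each flask, minus the mean of the resistant flasks. A gene is shown by its tested probe of highest mean. Naive flask 2 (blue diamonds) lies to the right of naive flask 1 (blue circles) for 20 of the 24 early genes, and both naive values of EGR1 and FOSL1 lie far to the right of the resistant flasks.

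Regulators outside the member set were read from a list of 73 further blood transcription factors and cofactors, of which 65 were tested. Of these 6 were called, 4 higher and 2 lower, or 9.23% beside 5.47% of all genes tested. The median log2 change of the 65 was 0.06. TFEC, a macrophage relative of MITF, was not well above background in the naive flasks (-8.61 and -8.40) and was at -3.29 and -3.42 in the resistant flasks, at least 7.47-fold higher (adjusted p = 0.000861). IRF5, a factor of inflammatory macrophages, rose from -1.72 and -2.81 to 1.16 and 1.17 (change 3.43, adjusted p = 0.0108). Of 3 monocyte markers tested, MARCO was called at 1.87, CSF1R had 1.23 (adjusted p = 0.0519) and CD14 -0.50, while FCGR3A and CD163 were not well above background on any array. The summed signal of the monocyte markers was 2.93 and 3.38 times the 75th percentile in the naive flasks and 6.75 and 7.73 in the resistant flasks. Most of this sum is CSF1R alone, which was not called. Its log2 level was 1.5 and 1.7 in the naive and 2.7 and 2.9 in the resistant flasks. The part of these markers in the values of TFEC, IRF5 and MEF2C was not tested. KLF7 and the chromatin organizer SATB1 rose by 1.81 and 1.42 (adjusted p = 0.0463 and 0.0483). TCF4, an E protein of B cells and plasmacytoid dendritic cells, fell from -1.95 and -2.01 to -4.53 and -4.26 (change -2.42, adjusted p = 0.00565). TCF7, the T cell factor TCF1, was at -5.86 and -6.04 in the naive flasks and not well above background in the resistant flasks, at least 1.44-fold lower (adjusted p = 0.00458). HLX, a homeobox factor, had a change of 1.26 (adjusted p = 0.259).

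Of 32 tested genes that mark the granulocyte and monocyte lines, 11 were called, 9 higher and 2 lower. That is 34.4%, beside 5.47% of all genes tested, 2.49% higher and 2.98% lower. Many of the 32 are known targets of PU.1 and the C/EBP proteins, and SPI1 and CEBPA had the values given above. The median log2 change of the 32 was 0.77, beside 0.02 for the 44 members and -0.01 for all genes. S100A8 rose by 2.29 (adjusted p = 0.00712), CAMP, a granule peptide, by 2.05 and ITGAM, the integrin CD11b, by 2.01. ELANE, AZU1, S100A9 and EPX rose by 2.49, 1.17, 1.91 and 1.94, with 1 of the 2 naive arrays well above background for ELANE and S100A9. CLC was not well above background in the naive flasks and was at least 1.101-fold higher in the resistant line. MMP9 and ANPEP, the peptidase CD13, fell by 2.01 and 1.83. The count of 11 was 3 without resistant flask 1 and 1 without resistant flask 2. Of 19 tested genes of red cells and platelets 1 was called, or 5.26%. It was ITGA2B, the platelet integrin subunit, at -1.76 and -0.74 in the naive and -3.54 and -3.75 in the resistant flasks (change -2.40, adjusted p = 0.0319). The median of the 19 was -0.29, and HBB, HBG1 and AHSP were not well above background on any array. Only ITGA2B of these 19 stood with GATA2 and GFI1B on the lower side by at least 2-fold.

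**Figure D5:**
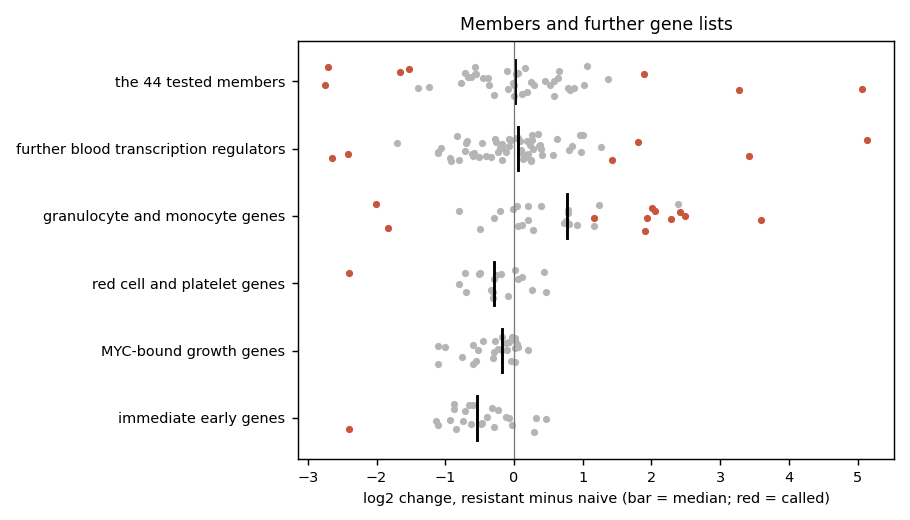
Log2 change, resistant minus naive, of each tested gene in the member set and 5 further lists, with called genes in red and the median as a black bar. The medians run from -0.54 for the immediate early genes to 0.77 for the granulocyte and monocyte genes, and that of the members is 0.02. Fitted values are plotted also for genes not well above background in 1 line, where the fold change is only a bound.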

How the data were processed

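RNA of 2 independent flasks each of naive and ATO resistant NB4 cells was labeled with Cy3 and hybridized to 1-colour Agilent whole human genome arrays. The authors deposited the output of Feature Extraction 10.5.1.1, in which the processed signal is a background-subtracted intensity per spot (the mean spot signal and median local background are further intensity columns), and a table of log2 values made by the authors in GeneSpring GX with a 75th percentile shift. From the intensities, control and outlier spots were left out, spots of a probe were averaged on the log2 scale in R 4.3.3, and each array was shifted by its 75th percentile. On every array the result had a Pearson's r of 0.9998 or more with the deposited log2 table, across probes. The lines were set against each other with limma 3.58.1 (lmFit, eBayes), with Benjamini-Hochberg adjustment over 28221 probes. A probe with several spots counted as well above background where 50% or more of them were. Members were matched by the array's gene names, and probe positions are those of the files, hg19. Where neither array of a line measured a probe well above background, the fold is a bound: the mean of the brighter line against the mean, over the arrays of the dimmer line, of the higher of the probe's own signal and the lowest signal well above background. All members were accounted for, with full statistics for called genes and those above background in 1 line, and from each further list the called genes and up to 4 more of largest change could be named. The members and lists were chosen with earlier results of these data known. The script was tested on simulated data. The number of arrays limits the precision. The flasks are the replicates. Each p-value of limma sets a change against the spread between flasks of a line, combined with a variance borrowed from the other probes. The alternatives were other background corrections, normalizations, probe filters and thresholds, the deposited table, the methods' t-test, a block for the replicate number, the omission of each flask and the mean over a gene's probes. For the further lists these alternatives were added after the data were seen. Values of some single genes of the further lists are not reported here.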

Additional observations from a re-analysis of the deposited data

How the results depend on the processing

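Of 875 recomputed log2 changes of single members under 20 alternatives, 788 kept their direction and their side of the threshold, 36 were no longer called, 20 became called and 31 changed sign, and the cause was not tested. The 1487 probes and 7 members called became 0 and 0 after normexp correction with an offset of 50 and 0 and 0 with the methods' t-test, 675 and 2 at an adjusted p below 0.01, 760 and 5 when probes had to be well above background on all arrays, and 1004 and 2 with no filter on dim probes. They ran from 728 to 4536 and from 2 to 14 when each flask was left out in turn. With the replicate number as a block, where the numbers are not known to pair the flasks (r = 0.119 over 2 pairs), they were 1375 and 6, and GATA2 was the member lost.

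In the further lists, the 6 further regulators, 11 granulocyte and monocyte genes, 1 red cell and platelet gene and 1 immediate early gene called became 0, 0, 0 and 0 after normexp with an offset of 50 and with the methods' t-test. At an adjusted p below 0.01 the first 3 were 3, 4 and 0. Among probes well above background on all arrays the first 2 were 2 and 7. The red cell and platelet count was 0 after quantile normalization and with no filter. The MYC-bound and immediate early genes called were 2 and 2 after normexp with bright backgrounds reset, and 2 and 2 with an intensity trend. With each flask left out the counts ran from 3 to 13 for further regulators, from 1 to 16 for granulocyte and monocyte genes, from 0 to 3 for red cell and platelet genes, from 0 to 4 for MYC-bound genes and from 0 to 9 for immediate early genes.

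The changes of sign were of members whose reported change was at most 0.10 in size, except KLF2 (-0.29) and KLF10 (-0.55), which changed sign without naive flask 2. After normexp with an offset of 50, SPI1 was 0.075, CEBPA -0.061, MYB -0.27 and MYC -0.022, and with bright backgrounds reset SPI1 was 0.016 and MYB -0.19. After quantile normalization GFI1 was 0.017, MYB -0.13 and FLI1 0.018. After scale normalization GFI1 was 0.16, FLI1 0.15 and NFE2 0.10, and after a shift to the median GFI1 was 0.040 and FLI1 0.025. The mean over probes was -0.059 for CEBPA and -0.34 for MYC. With each flask left out the changes ran from -0.51 to 0.35 for SPI1, -0.34 to 0.39 for CEBPA, -0.16 to 0.15 for GFI1, -0.13 to 0.14 for MYB, -0.10 to 0.21 for MYC, -1.03 to 0.45 for KLF2, -1.27 to 0.16 for KLF10, -0.10 to 0.064 for FLI1 and -0.55 to 0.34 for NFE2. The median log2 change of further blood transcription regulators ran from -0.057 to 0.072, that of the red cell and platelet genes was 0.23 after normexp with an offset of 50, and that of the MYC-bound genes 0.017 after scale normalization. A slide block could not be fitted, because there was 1 slide. No scaling moved the median of all probes by more than 0.087. Signals near background and at saturation limit what these arrays can show.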
